A study of Mus musculus with 6 samples.

Results

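The genes described here are 10 members of the myostatin, activin and follistatin family in mouse tibialis anterior (TA) muscle: 5 ligands (Mstn, Gdf11, Gdf15, Inhba and Inhbb), 3 follistatins (Fst, Fstl1 and Fstl3) and 2 type II receptors (Acvr2a and Acvr2b). They were chosen by name, and each had 1 transcript in a table of 26431 genes. Whole TA muscle was taken from C57BL/6 female mice aged 8 to 10 weeks, 3 of them uninjured and untreated and 3 at day 3 after an injection of 50 µL of 10 µM cardiotoxin (CTX) into the muscle. The sex is that of the sample labels, while the study's general methods name male mice unless stated otherwise; Xist, which is expressed in female cells, had 5190 or more reads in each library, and 4 Y-linked genes had at most 6 each. CTX, here from the venom of Naja mossambica mossambica, destroys muscle fibres and leaves the stem cells that rebuild them. RNA was sequenced as 1 library per mouse, and levels are RPKM, the reads of a transcript scaled to its length and to the library's total of mapped reads. The comparison asks how each gene's transcript differed between resting muscle and muscle that had begun to regenerate.

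Myostatin, GDF11 and the activins are secreted dimers of the TGF-β superfamily. They are made as precursors, are held inactive by their propeptides or by follistatins, and bind the type II receptors ACVR2A and ACVR2B, which recruit a type I receptor that phosphorylates SMAD2 and SMAD3. In skeletal muscle this branch is known as a brake on fibre size: mice and cattle without myostatin have enlarged muscles, and follistatin given in excess enlarges muscle too.

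The libraries held 34202861 to 43062684 mapped reads, so that 1 read in a transcript of 1 kb was worth 0.0232 to 0.0292 RPKM. Of the 14446 genes with a mean of at least 0.5 RPKM, 60.5% were called higher and 7.96% lower at day 3, a call being a limma adjusted p under 0.05 with levels that differ 2-fold or more. The median gene of the 14446 rose by 1.35 on the log2 scale. Sequences of the mitochondrial genome held 22.1 to 24.7% of the reads in uninjured libraries and 4.77 to 6.62% at day 3. With scaling by the median of ratios between libraries the median gene stood at 0.026, with quantile normalization at -0.074, with scaling to 73 ribosomal protein genes at -0.75, with ERCC spike-ins at 0.94 and with reads outside mitochondrial sequences at 1.06. Each member is therefore given both as RPKM and against the median gene. The 8 adult fast-fibre genes that mark the labelled tissue (Ckm, Acta1, Myh4, Myh1, Pvalb, Tnnt3, Atp2a1 and Mylpf) summed to between 46465 and 49942 RPKM in uninjured libraries and to 6218, 8667 and 1953 RPKM in day 3 replicates 1, 2 and 3. The third day 3 library stood apart from replicates 1 and 2, with the lowest day 3 value for 8 of these 8 genes and the highest day 3 value for 7 of 7 macrophage genes. In whole muscle, fewer cells of a type and less RNA per cell cannot be told apart.

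Of the 10 members, 7 were called higher (against 60.5% of all tested genes), 2 were called lower (against 7.96%) and 1 was not called. All 10 reached the filter of 0.5 RPKM, but Gdf15, Inhba, Inhbb and Fstl3, 4 of the 7 called higher, did so only through their day 3 values. The 3 day 3 values lay above the 3 uninjured values for 8 members (against 78.5% of tested genes) and below them for 2, Mstn and Acvr2b (against 14.5%). An exact two-sided permutation test of 3 against 3 libraries gave p = 0.1 for each of the 10, the smallest p it can give. The median change of the members was 1.87 on the log2 scale of RPKM + 0.1, beside 1.35 for all tested genes. Relative to the median gene, 6 members (Gdf15, Fstl1, Inhbb, Inhba, Fst and Fstl3) lay above and 4 (Gdf11, Acvr2a, Acvr2b and Mstn) below in RPKM. Of the 5 other scalings, 4 apply 1 factor to a library and move the median gene nearly as much as each member. Those 4 could therefore hardly change a side. Under quantile normalization each member also kept its side, but Inhba lay only 0.046 and Fstl3 only 0.076 above the median gene (SE of each change 0.24).

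**Figure D1:**
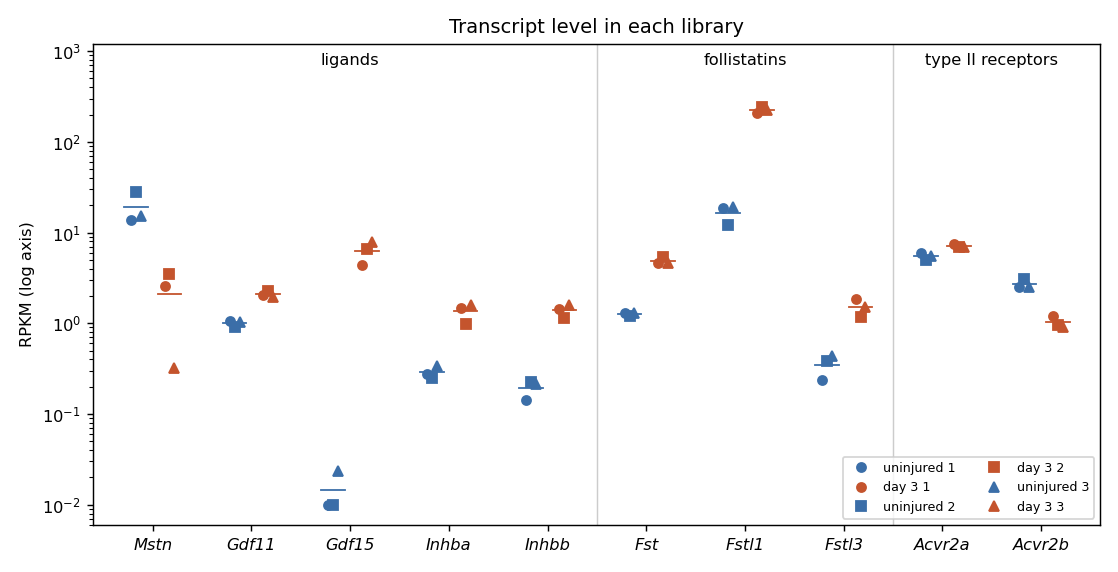
Level of each member in each library, as RPKM on a log axis; blue points are the 3 uninjured and red points the 3 day 3 libraries, with a shape for each replicate number. The groups overlap for none of the 10 genes: Mstn and Acvr2b lie lower at day 3 and the other 8 higher, and the Mstn value of 0.320 in the third day 3 library stands apart from 2.56 and 3.46 in the others.

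The sequence just before the transcription start is shown for the 2 members called lower and for Gdf15, which had the largest rise. Each window is the 250 bases before the RefSeq start of build GRCm38.p6, written 5′ to 3′ on the strand of the gene; capitals mark E-boxes, CANNTG, the motif bound by MyoD, myogenin and other basic helix-loop-helix proteins. The Mstn window lies at chr1:53061390-53061639 on the plus strand, that of Gdf15 at chr8:70632096-70632345 on the minus strand, before 1 of the 2 Gdf15 starts listed, and that of Acvr2b at chr9:119401928-119402177 on the plus strand.
Mstn: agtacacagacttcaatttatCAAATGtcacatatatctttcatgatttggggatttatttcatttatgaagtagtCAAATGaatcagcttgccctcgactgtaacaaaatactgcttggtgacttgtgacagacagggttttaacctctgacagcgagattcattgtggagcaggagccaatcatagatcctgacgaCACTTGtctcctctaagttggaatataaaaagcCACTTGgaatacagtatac
Gdf15: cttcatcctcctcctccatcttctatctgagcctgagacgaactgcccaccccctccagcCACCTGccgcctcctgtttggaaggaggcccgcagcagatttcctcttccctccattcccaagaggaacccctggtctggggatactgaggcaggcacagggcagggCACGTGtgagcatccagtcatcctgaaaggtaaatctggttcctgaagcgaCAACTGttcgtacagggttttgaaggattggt
Acvr2b: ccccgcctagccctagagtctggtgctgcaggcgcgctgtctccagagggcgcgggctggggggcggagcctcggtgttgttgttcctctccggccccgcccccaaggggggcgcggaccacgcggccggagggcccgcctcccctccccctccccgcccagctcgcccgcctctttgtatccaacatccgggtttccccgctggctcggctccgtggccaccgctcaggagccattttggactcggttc

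The Mstn window held 4 E-boxes, which began 229, 174, 52 and 19 bases before the start, and a TATAAA element that began 29 bases before it. Among 32851 promoter windows of the same length, 66.2% held at least 1 E-box, 3.84% held 4 or more and 12.4% held TATAAA. The Mstn window also held 2 matches to CAGAC, the box bound by SMAD proteins, and 1 to the AP-1 motif TGANTCA, which overlaps its second E-box. At least 1 CAGAC occurred in 42.2% and at least 1 TGANTCA in 6.75% of all windows, while the share with 2 or more CAGAC was not counted. The Gdf15 window held 3 E-boxes, as 12.2% of windows do with 3 or more, and 1 CAGAC. The Acvr2b window held no E-box and 1 CAGAC. The motif TGATGNAAT, bound by ATF4, a factor of the integrated stress response, was in none of the 9 member windows and in 0.816% of all windows. Motifs were searched on both strands, a match is only a match of letters, and Fst was the 1 member without a window.

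Mstn, which encodes myostatin, was the family's most abundant ligand in uninjured muscle and fell at day 3. The gene lies at chr1:53061640-53068079 on the plus strand (GRCm38, GENCODE M21; 3 exons). It stood at 13.78, 27.96 and 15.27 RPKM in the uninjured libraries, from 1592, 2933 and 1586 reads, and at 2.56, 3.46 and 0.320 RPKM at day 3, from 235, 330 and 31 reads. Every day 3 library was below every uninjured one. The mean fell 8.98-fold, from 19.004 ± 7.79 to 2.12 ± 1.62 RPKM (SD, n = 3), and the log2 change was -3.52 (SE 0.78; limma adjusted p = 0.00332), or -4.87 against the median gene. Only 0.602% of the tested genes had a lower change. The spread was wide, with a coefficient of variation of 41.0% in uninjured and 76.5% in day 3 muscle, and the size of the fall leaned on the third day 3 library. Without it the change was -2.56 (SE 0.31; adjusted p = 2.51e-04), a 5.89-fold fall, and without the second day 3 library it was -4.10, a 17.2-fold fall, while the call held with each of the 6 libraries left out in turn (adjusted p up to 0.0137).

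Adult fibres are the known source of myostatin in muscle, and the Mstn level is set beside their transcripts in the plot of Mstn against 8 fast-fibre genes. The order of the 3 day 3 libraries was the same for both, with the third lowest and the second highest. In the uninjured libraries the order differed. Replicates 1, 2 and 3 had fibre sums of 46465, 48998 and 49942 RPKM, and Mstn levels of 13.78, 27.96 and 15.27 RPKM. As a ratio within each library, Mstn to Ckm, the muscle creatine kinase, overlapped between the groups, with medians of 0.00158 in uninjured and 0.00266 in day 3 muscle. Mstn to Acta1, the skeletal muscle actin, was 0.00197 to 0.00387 in uninjured and 0.000605 to 0.00189 in day 3 muscle. These ranges do not overlap, although they lie close together. Both ratios were chosen after the values had been seen, and the part of fibre loss in the fall of Mstn was not tested.

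**Figure D2:**
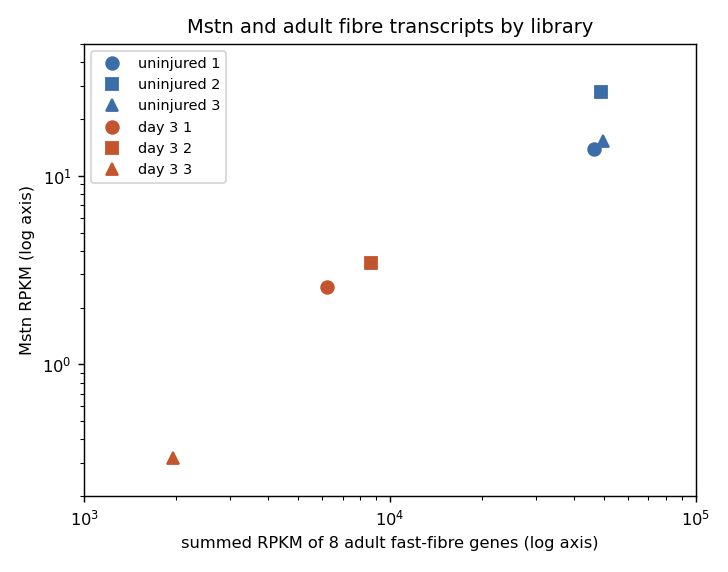
Mstn RPKM against the summed RPKM of 8 adult fast-fibre genes, both on log axes, with 1 point for each of the 6 libraries. Uninjured libraries (blue) lie together at 46465 to 49942 RPKM of fibre genes, and the third day 3 library (red triangle) has both the lowest fibre sum, 1953 RPKM, and the lowest Mstn, 0.320 RPKM.

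Gdf11, the gene closest to Mstn in sequence, was scarce in both groups, and its doubling in RPKM sat at the limit of a call. It lies at chr10:128882295-128891718 on the minus strand (3 exons). Its levels were 1.05, 0.918 and 1.03 RPKM in uninjured and 2.07, 2.25 and 1.97 RPKM in day 3 muscle. All libraries of a group were close to each other, with means of 0.999 ± 0.0711 and 2.10 ± 0.144 RPKM (SD, n = 3). The mean was 2.10-fold higher, and the log2 change of RPKM + 0.1 was 1.0004 (SE 0.10; limma adjusted p = 4.88e-05), just past the minimum for a call. This change lay at -0.35 against the median gene. It turned to -0.29 with the median of ratios, -0.72 with quantiles and -1.04 with ribosomal protein genes. The call was lost, with a change of 0.95 each time, without the second uninjured or the second day 3 library. It was also lost with limma's array weights (0.985) and with scaling to reads outside mitochondrial sequences (0.72). Mstn exceeded Gdf11 13.1- to 30.5-fold in uninjured libraries, while at day 3 it was 1.24, 1.54 and 0.162 times Gdf11. The longest stretch of bases that the Mstn and Gdf11 transcripts share is 12, so that reads of 50 bases separate them.

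Gdf15 went from next to nothing to one of the more abundant members. GDF15 is a distant member of the superfamily that many cells secrete under stress and that lowers food intake through the receptor GFRAL in the hindbrain. The gene lies at chr8:70629393-70632456 on the minus strand (2 exons). The 3 uninjured libraries held 0, 0 and 1 read of it, and the day 3 libraries held 164, 253 and 308. In RPKM these reads were 0.01, 0.01 and 0.0238, where 0.01 is the table's floor, against 4.42, 6.57 and 7.86, or 6.29 ± 1.74 at day 3 (SD, n = 3). The pooled reads, 1 against 725, gave a ratio of 828 after division by library totals, with an exact 95% interval of 148 to 32757 that covers counting error only. The log2 change of 5.76 (SE 0.22; limma adjusted p = 2.56e-07) depends on the 0.1 RPKM added, and became 8.01 with 0.01 and 2.82 with 1. It lay 4.41 above the median gene and above the changes of 98.3% of tested genes, and Gdf15 was called higher under all scalings tried. Gfral, named after its values were seen, was listed at the floor in 5 libraries and at 0.0141 RPKM in the other, and was too low to be tested.

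Inhba and Inhbb encode the βA and βB chains whose dimers are the activins, and both were at low levels that rose in RPKM, although Inhba turned to -0.028 under quantile normalization. Inhba lies at chr13:16011851-16031621 on the plus strand (3 exons) and Inhbb at chr1:119415465-119422248 on the minus strand (2 exons). Inhba stood at 0.273, 0.251 and 0.338 RPKM in uninjured and 1.49, 0.976 and 1.59 RPKM in day 3 muscle, from 15 to 20 and from 53 to 88 reads. Inhbb stood at 0.142, 0.228 and 0.212 RPKM in uninjured and 1.46, 1.14 and 1.59 RPKM in day 3 muscle. In both genes the second day 3 library was the lowest of its group and still above every uninjured library. The Inhba change of 1.89 (SE 0.20; limma adjusted p = 6.16e-05) was 0.54 above the median gene, and was 0.028 under ribosomal protein scaling. The Inhbb change of 2.34 (SE 0.19; adjusted p = 1.01e-05) was 0.99 above the median gene and stayed positive under all scalings, with no call under quantile normalization (0.39) or ribosomal protein scaling (0.56). After division by library totals, the pooled reads of Inhba (53 against 219) were 4.72-fold and those of Inhbb (99 against 628) 7.25-fold higher at day 3.

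Fst encodes follistatin, which wraps around activins and myostatin and keeps them from their receptors, and its level rose 3.89-fold in RPKM, a rise that turned to -0.22 on the log2 scale under ribosomal protein scaling. The gene lies at chr13:114452290-114458951 on the minus strand, with 6 exons. It stood at 1.29, 1.19 and 1.30 RPKM in uninjured and 4.62, 5.45 and 4.65 RPKM in day 3 muscle. The libraries of each group lay close together, with means of 1.26 ± 0.0609 and 4.91 ± 0.469 RPKM (SD, n = 3). The log2 change was 1.87 (SE 0.098; limma adjusted p = 1.06e-06), 0.52 above that of the median gene, and between 0.32 and 0.53 above it under all scalings.

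Fstl3 encodes a second secreted antagonist of activins and myostatin, related to follistatin and shorter, and it was scarcer than Fst in each library. It lies at chr10:79777272-79782630 on the plus strand (5 exons). Its levels were 0.238, 0.380 and 0.436 RPKM in uninjured and 1.87, 1.18 and 1.53 RPKM in day 3 muscle, and the groups do not overlap. The change of 1.86 (SE 0.23; limma adjusted p = 1.37e-04) was 0.50 above the median gene and turned to -0.039 under ribosomal protein scaling. On the opposite strand lies Prss57, a serine protease gene of neutrophil granules, and 1108 of the 1906 stretches of 50 bases in the Fstl3 transcript (58.1%) also occur in Prss57 transcripts. How the library marked strand is not given in the sources used here, so that reads of these genes cannot be told apart over that stretch. Prss57 itself was listed at 0.0949, 0.161 and 0.211 RPKM in uninjured and 0.717, 0.565 and 0.750 RPKM in day 3 muscle, and the sum of 4 neutrophil markers rose from between 1.32 and 3.87 to between 17.6 and 42.2 RPKM. Their part in the Fstl3 value was not tested.

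Fstl1 was by far the most abundant member at day 3. Its product shares a follistatin-like domain with the other follistatins but belongs to the SPARC family of matrix glycoproteins, and is made mostly by mesenchymal cells. The gene lies at chr16:37776873-37836514 on the plus strand (11 exons). It stood at 18.6, 12.0 and 19.2 RPKM in uninjured muscle, the range of Mstn, and at 210.4, 244.3 and 226.3 RPKM at day 3, from 25968, 31316 and 29505 reads. The mean rose 13.7-fold, from 16.6 ± 3.99 to 227.001 ± 16.999 RPKM (SD, n = 3). The log2 change was 3.79 (SE 0.18; limma adjusted p = 6.66e-07), 2.44 above the median gene, and it was called higher under all scalings tried. The 6 markers of fibroblasts and fibro-adipogenic progenitors (Pdgfra, Col1a1, Col3a1, Lum, Dpt and Postn) were called higher in 6 of 6 cases, their sum going from between 105 and 189 to between 1575 and 1760 RPKM. Macrophage markers were called higher in 7 of 7 cases, from sums of 21.9 to 34.0 to sums of 3346 to 4778 RPKM, and markers of myoblasts and new fibres in 7 of 7, from 55.8 to 62.7 to between 764 and 1215 RPKM. These sums moved with every member that rose, and their part in those results was not tested. Each of these marker counts stands beside 60.5% of all tested genes called higher. The endothelial sum, 59.7 to 68.6 RPKM in uninjured and 70.2 to 75.6 RPKM in day 3 muscle, had none of its 4 genes called. Summed adipocyte markers were at 15.02 to 34.997 RPKM in uninjured and 3.22 to 25.3 RPKM in day 3 muscle, and Schwann cell markers at 14.7 to 29.4 and 12.5 to 23.2 RPKM. No marker of any of these lists was at the floor throughout a group.

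The 2 type II receptors went different ways. Acvr2a lies at chr2:48814109-48903269 on the plus strand (11 exons) and stood at 5.94, 5.03 and 5.46 RPKM in uninjured and 7.55, 6.95 and 6.86 RPKM in day 3 muscle. Its groups do not overlap, but the change of 0.38 (SE 0.085; limma adjusted p = 0.00388) was under 2-fold, lay 0.98 below that of the median gene and turned to -0.047 with ERCC spike-ins, -0.98 with the median of ratios, -1.005 with quantiles and -1.77 with ribosomal protein genes. Of its stretches of 50 bases, 7.04% also occur in Orc4 on the opposite strand, which was at 2.02 to 2.37 RPKM in uninjured and 4.78 to 5.25 RPKM in day 3 muscle. Acvr2b, the receptor to which myostatin binds most strongly, lies at chr9:119402118-119434995 on the plus strand (10 exons). It stood at 2.50, 3.10 and 2.52 RPKM in uninjured and at 1.21, 0.955 and 0.906 RPKM in day 3 muscle, and every day 3 library was below every uninjured one. The mean fell 2.64-fold, from 2.70 ± 0.338 to 1.03 ± 0.165 RPKM (SD, n = 3), and the log2 change was -1.32 (SE 0.14; adjusted p = 6.12e-05), or -2.67 against the median gene. Acvr2b was called lower under all scalings. The calls of low genes also leaned on the amount added: with 1 RPKM in place of 0.1, Gdf11 (0.63), Inhba (0.86), Fstl3 (0.90) and Acvr2b (-0.87) missed the minimum fold, and so did Inhbb. With the median of ratios, Inhba (0.72), Fst (0.55) and Fstl3 (0.66) missed it, and Gdf11 also missed it with ERCC spike-ins (0.60).

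**Figure D3:**
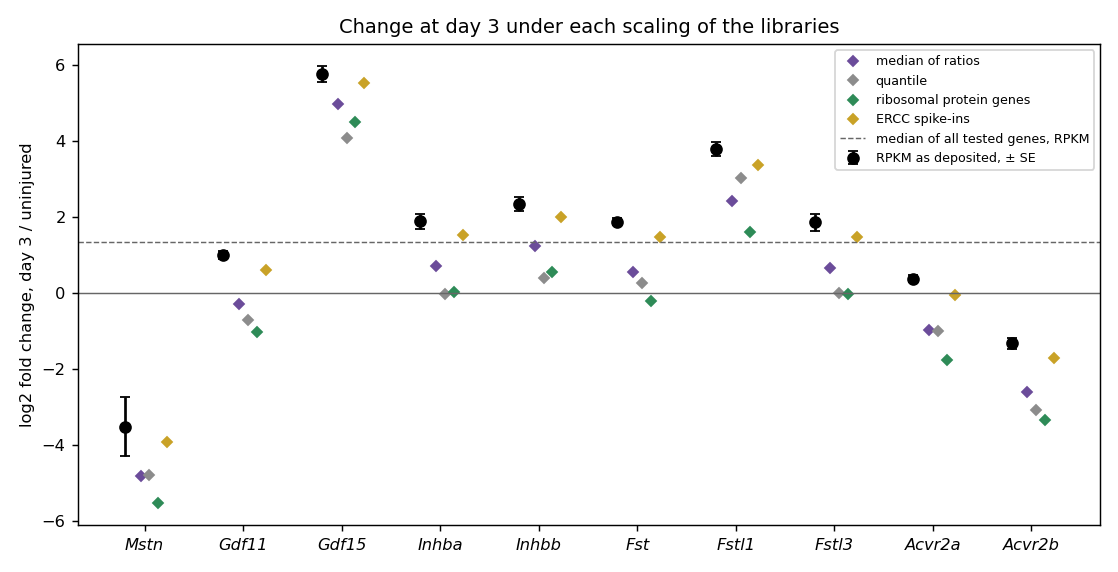
Log2 fold change of each member, day 3 against uninjured; black points are RPKM + 0.1 with the standard error of the fit (n = 3 and 3), diamonds are 4 other scalings of the libraries, and the dashed line is the median of all tested genes, 1.35. Mstn and Acvr2b lie below 0 and Gdf15, Inhbb and Fstl1 above 0 under each scaling shown, while Gdf11, Inhba, Fst, Fstl3 and Acvr2a cross 0.

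By level, the order of the family changed between the groups. In uninjured muscle Mstn and Fstl1 came first with ranges that overlap, followed by Acvr2a, Acvr2b, Fst and Gdf11, each without overlap with the next. Fstl3 and Inhba overlapped below them, and Inhbb and then Gdf15 came last. At day 3 Fstl1 stood alone at the top. Acvr2a (7.12 RPKM), Gdf15 (6.29 RPKM) and Fst (4.91 RPKM) followed, with ranges that overlap from each to the next, then Mstn and Gdf11, which overlap, and last Fstl3, Inhbb, Inhba and Acvr2b, each overlapping its neighbour at 1.53 to 1.03 RPKM. RPKM takes account of the length of the 1 RefSeq transcript listed for each member, and levels can be set beside each other within that limit. How reads shared with another transcript were handled is not given, which touches the levels of Fstl3 and Acvr2a.

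Ratios between members within a library do not move with a factor that scales a whole library. Fst was 0.0937, 0.0426 and 0.0854 times Mstn in uninjured muscle and 1.80, 1.57 and 14.6 times Mstn at day 3. The antagonist was thus the scarcer transcript in every uninjured library and the more abundant in every day 3 library, with medians that differ 21.1-fold. The day 3 median of 1.80 became 8.06 without the first and 8.18 without the second day 3 library, and 1.69 without the third. Fstl1 was 1.35, 0.430 and 1.26 times Mstn in uninjured muscle and 82.1, 70.5 and 707 times Mstn at day 3, where the median of 82.1 became 389 without the first and 395 without the second library. The high value of the third day 3 library in both ratios comes with its low Mstn, as Fst and Fstl1 were not at an extreme there. Acvr2b was 0.421, 0.616 and 0.462 times Acvr2a in uninjured muscle and 0.161, 0.137 and 0.132 times at day 3, a 3.36-fold difference of medians with no overlap. The other 2 ratios did overlap. Fstl3 to Fst was 0.184, 0.318 and 0.335 in uninjured and 0.405, 0.217 and 0.329 in day 3 muscle. Inhba to Fst was 0.212, 0.210 and 0.259 in uninjured and 0.323, 0.179 and 0.342 in day 3 muscle.

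**Figure D4:**
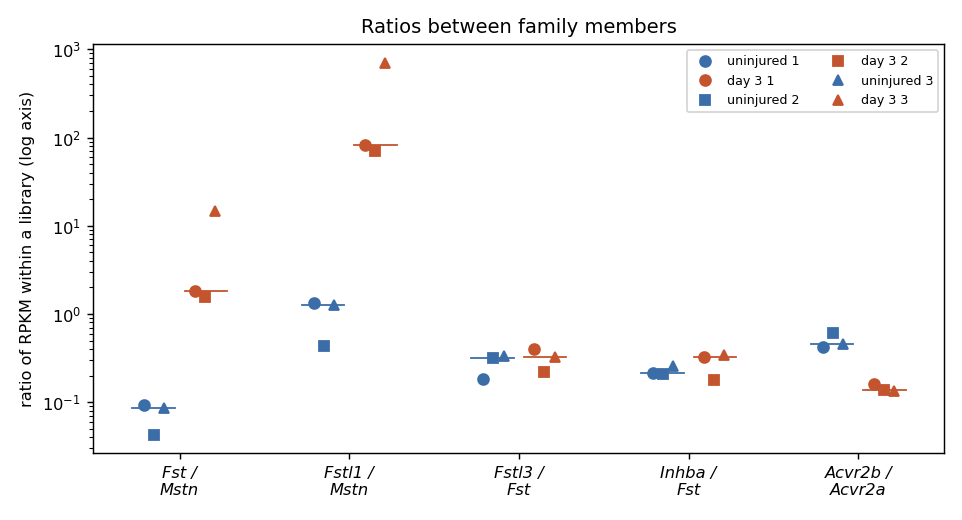
Ratio of RPKM between members within each library, on a log axis, with 1 point per library (blue uninjured, red day 3) and a line at the median of each group. Fst to Mstn rose from a median of 0.0854 to 1.80 and Fstl1 to Mstn from 1.26 to 82.1, Acvr2b to Acvr2a fell from 0.462 to 0.137, and Fstl3 to Fst and Inhba to Fst overlap between the groups.

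Among the 8090 genes with a mean of at least 5 RPKM, the genes most like Mstn over the 6 libraries, by Pearson's r of log2(RPKM + 0.1), were 4930429F24Rik and Trim63 (both 0.999), Eif3j2 (0.997), Cap2 and Ip6k3 (both 0.995). Trim63, the muscle ubiquitin ligase MuRF1, stood at 64.7, 92.1 and 70.9 RPKM in uninjured and 30.7, 35.1 and 14.5 RPKM in day 3 muscle. As in Mstn, the second uninjured library was the highest of its group and the third day 3 library the lowest. The most alike genes of the others were Serpinb1a for Gdf11, Ptplad2 for Gdf15, Fam65a for Inhba, Prdm2 for Inhbb, Tctex1d2 for Fst, Marc2 for Fstl1, Iars2 for Fstl3, 9430020K01Rik for Acvr2a and Spg7 for Acvr2b. All 6 points share the difference between the groups, so that such values describe the libraries only.

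A further 70 genes of the pathway were followed by role, and 57 of them were abundant enough to test. Gdf3, Bambi, Pcsk5, Tll1 and Ret, all called higher, reached the filter of 0.5 RPKM only through their day 3 values. Of these, 32 (56.1%) were called higher and 8 (14.0%) lower, beside 60.5% and 7.96% of all tested genes, with a median change of 1.44 beside 1.35. The 5 other scalings all gave the same call to 8 of the genes called higher, among them Tgfb1, Gdf3, Bgn, Tgif1, Cdkn1a, Tlr4 and Cd14, and to 8 of those called lower (Inha, Gdf1, Wfikkn2, Nog, Zfyve9, Fbxo32, Trim63 and Mef2c). Changes below are on the log2 scale of RPKM + 0.1, from the same limma fit.

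Of 6 other ligands tested, 3 were called higher and 2 lower, beside 60.5% and 7.96% of all tested genes. Tgfb1, the TGF-β made by many immune cells, was the most abundant and rose from between 1.89 and 2.84 RPKM to between 63.9 and 90.5 RPKM, a change of 4.83 (SE 0.19; adjusted p = 3.02e-07). Gdf3 rose by 4.34 to a mean of 11.7 RPKM. Inha, whose α chain pairs with the activin chains to form inhibins, was at 3.62 to 6.10 RPKM in uninjured and 1.38 to 2.16 RPKM in day 3 muscle, a change of -1.35 (SE 0.23; adjusted p = 7.90e-04). Gdf1 was also lower (-1.48), but this gene shares a transcript with Cers1 and its value is uncertain. Inhba and Inhbb thus had higher and Inha lower RPKM at day 3, although Inhba turned to -0.028 under quantile normalization.

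Of 9 other receptors and co-receptors tested, 5 were called higher and none lower in RPKM, beside 60.5% and 7.96% of all tested genes. Under the 5 other scalings none of the 5 kept its call in all, Acvr1, Tgfbr3 and Bambi changed sign in at least 1, and Acvr1b, a type I receptor for activins that was not called in RPKM (-0.74), was called lower in all 5. The TGF-β receptors Tgfbr1 and Tgfbr2 rose most, by 2.50 (SE 0.058; adjusted p = 9.52e-08) to 30.5 RPKM and by 2.53 to 22.5 RPKM. Acvr2a at 7.12 RPKM and Acvr2b at 1.03 RPKM were scarcer than both at day 3.

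Of 8 other binding proteins tested, 2 were called higher and 2 lower, beside 60.5% and 7.96% of all tested genes. Bgn encodes biglycan, a matrix proteoglycan that binds TGF-β, and rose by 4.14 (SE 0.15; adjusted p = 2.44e-07) to 379 RPKM. Chrd, which encodes the BMP antagonist chordin, rose by 2.27 to 4.44 RPKM, but was called higher under only 2 of the 5 other scalings, with a smallest change of 0.21. Wfikkn2, whose product binds myostatin and GDF11, stood at 2.89 to 3.35 RPKM in uninjured and at 0.590 ± 0.165 RPKM (SD, n = 3) in day 3 muscle, and fell by 2.27 (SE 0.19; adjusted p = 1.51e-05). Nog, the BMP antagonist noggin, fell by 1.02 (SE 0.41; adjusted p = 0.0451). It stood at 1.74 to 1.95 RPKM in uninjured muscle and at 1.19, 1.39 and 0.374 RPKM at day 3, with the third day 3 library far below the others. Of the binders of myostatin named so far, Wfikkn2 fell together with Mstn while Fst and Fstl3 had higher RPKM at day 3. Fst and Fstl3 both turned negative under ribosomal protein scaling, and Fstl3 shares sequence with Prss57. Wfikkn1, related to Wfikkn2, went from between 0.0458 and 0.111 to between 0.218 and 0.242 RPKM and was too low to test. Dcn, which encodes decorin, went from a mean of 69.8 to 140 RPKM. Its change of 0.996 (SE 0.13; limma adjusted p = 1.59e-04) fell just short of the minimum fold, so it was not called. Wfikkn1 and Dcn were named after their values had been seen.

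Of 6 proteases that cut the precursors or propeptides of these ligands, 5 were called higher in RPKM, beside 60.5% of all tested genes, and none of the 5 kept its call under all 5 other scalings, with a change of sign in Furin, Pcsk7 and Tll1. Bmp1, a metalloprotease that frees myostatin from its propeptide, rose most, by 2.65 (SE 0.11; adjusted p = 3.19e-07) to 19.9 RPKM, and the convertase gene Pcsk5 rose by 2.23 to 2.02 RPKM. Of 11 SMADs and their regulators, 5 were called higher and 1 lower, beside 60.5% and 7.96% of all tested genes. Tgif1, a co-repressor of SMADs, rose by 3.31 to 5.74 RPKM. The co-repressors Ski and Skil rose by 1.63 and 1.64, and both turned negative under ribosomal protein scaling. Zfyve9, which brings SMADs to the receptor and is also known as SARA, fell by 1.35 (SE 0.097; adjusted p = 5.75e-06). The transducer Smad3 was at 17.7, 24.2 and 18.0 RPKM in uninjured and 14.8, 14.7 and 13.4 RPKM in day 3 muscle and was not called; it was named after its values had been seen.

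Of 10 genes known as targets of SMADs or of the muscle atrophy programme, 5 were called higher and 3 lower. The shares over all tested genes were 60.5% and 7.96%. Cdkn1a, a cell cycle inhibitor and target of TGF-β signalling, was the most abundant and rose by 4.26 (SE 0.50; adjusted p = 9.68e-05) to between 81.9 and 108 RPKM. The 3 called lower were the atrophy ubiquitin ligase Fbxo32 (-2.29), the fibre transcription factor gene Mef2c (-1.72) and Trim63 (-1.58), which are all abundant in adult fibres, and each was lowest in the third day 3 library. All 7 tested partners of GDF15 or FSTL1 were called higher in RPKM, beside 60.5% of all tested genes, but under the 5 other scalings only Tlr4 and Cd14 kept the call throughout, and Ret, Dip2b, Dip2c and Nrp1 changed sign. Cd14 and Tlr4, receptors of innate immune cells, rose by 4.93 to 22.6 RPKM and by 3.48 to 9.51 RPKM. Nrp1, the most abundant, rose by 1.69 to 45.7 RPKM, and turned negative under ribosomal protein scaling.

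**Figure D5:**
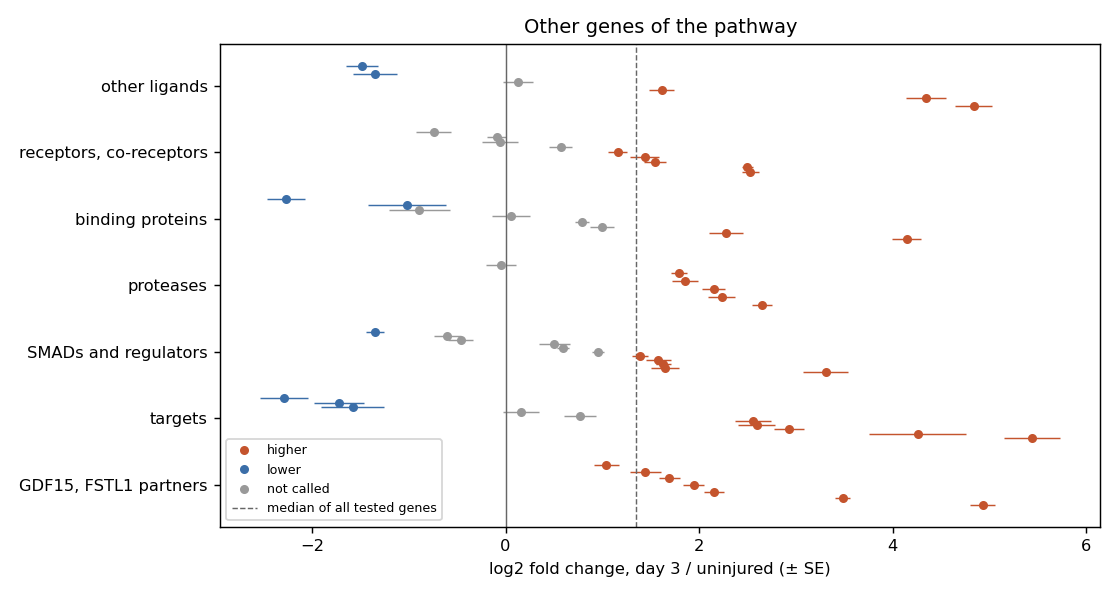
Log2 fold change (± SE of the fit, n = 3 and 3), day 3 against uninjured, of the 57 other pathway genes tested, in rows by role; red marks genes called higher, blue lower and grey not called, and the dashed line is the median of all tested genes, 1.35. The blue points are 8 genes, among them 3 targets abundant in adult fibres, and the partners of GDF15 and FSTL1 are all red.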

How the data were processed

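The 6 libraries, 3 per group, were aligned by the authors with BWA to RefSeq mouse transcripts, and RPKM values were deposited by the authors per transcript, with replicates not pooled; CASAVA 1.4 and SAMtools 0.1.19 are among the tools in the submitters' processing notes. The handling of reads with more than 1 matching transcript, and strand, are not given in the sources used here. The deposited lengths gave whole reads (within 0.01) for 100% of values above the floor of 0.01, which was read as 0 reads. Of 34302 rows, 96 name no gene (92 are ERCC spike-ins) and were left out of the tests. For each of 5019 genes with several transcripts the one with the highest mean was used. Genes whose mean reached 0.5 RPKM were fitted with limma 3.58.1 in R 4.3.3 (lmFit, then eBayes with a trend) after 0.1 was added and log2 taken. A gene was called where its p, adjusted by Benjamini-Hochberg over all fitted genes, was under 0.05 and its log2 change was 1 or more in size. The procedure was checked on simulated data drawn from uninjured means, in which 192 of 12269 genes were changed. Of the changed genes 100% were called, with 3 false calls. Each of these genes had been changed by well over the 2-fold minimum for a call. Recovery of genes changed by about 2-fold was not tested. The simulation held no shift of the median gene, so it does not bear on the choice of scaling. Levels, ratios and exact intervals used Python 3.11.15, pandas 2.3.3, NumPy 2.4.6 and SciPy 1.17.1, and figures matplotlib 3.10.9. Positions come from GENCODE M21 (GRCm38), promoter windows from RefSeq (GRCm38.p6). Alternatives varied the amount added (0.01 and 1), the filter (none and 2), the scaling, limma's options, the replicate block, the choice of transcript and which library was left out; voom was run on the recovered reads.

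The members and all gene lists were chosen with earlier results of these data known. All members are named; of other pathway genes, per role, the most abundant at day 3 and the 2 called genes with the largest rise and the largest fall, and for each member the 5 genes most correlated with it, of which the text gives 5 for Mstn and the first for the others. A pathway gene that this rule picks is not reported here.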

Additional observations from a re-analysis of the deposited data

How the results depend on the processing

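The calls of Mstn, Gdf15 and Fstl1 held under each of the 21 alternatives run on them (20 for the 5 members under a mean of 2 RPKM); the scaling of the libraries moved the others most. Members reversed as follows: Gdf11 to -0.29, -0.72 and -1.04 (median of ratios, quantiles and ribosomal protein genes), Inhba to -0.028 (quantile), Fst to -0.22 and Fstl3 to -0.039 (both ribosomal), and Acvr2a to -0.98, -1.005, -1.77 and -0.047 (median-of-ratios, quantile, ribosomal and ERCC). The 7 members called higher became 3 with 1 RPKM added, 3 of 5 tested with a mean of at least 2 RPKM, 3 with the median of ratios and 2 with quantile or ribosomal scaling; the 2 called lower became 1 with 1 RPKM added, 1 with a mean of at least 2 RPKM and 4 with ribosomal scaling. The 32 pathway genes called higher became 15, 13 and 8 with median-of-ratios, quantile and ribosomal scaling, and the 8 called lower became 18, 18 and 26, or 5 of 45 tested with a mean of at least 2 RPKM. The uninjured median of Inhba to Fst was 0.212, and 0.271 with 0.1 added to both. Over all genes, 8740 higher and 1150 lower became 3698 and 3358 with the median of ratios, 3460 and 3561 with quantiles, 2279 and 6123 with ribosomal genes, 6952 and 1597 with ERCC and 7478 and 1467 with reads outside mitochondrial sequences, the last chosen after seeing the data. The 4 scalings that apply 1 factor to a library lower every day 3 library against the uninjured ones, and which scaling is nearest to the RNA per muscle was not tested.

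Replicate numbers shared by the groups were not shown to pair the mice, as the deviations of same-numbered libraries correlated at -0.059, 0.092 and 0.018. With the replicate number as a block, 7 members were again called higher and 2 lower, and 8743 and 1149 of all genes. Depth limits Gdf15, Inhba and Fstl3 in uninjured muscle, where a library held 0 to 33 reads of each.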
